A study of Mus musculus with 24 samples.

Results

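The 78 genes described here encode proteins of the mitochondrial ribosome. They were taken by symbol, as Mrpl or Mrps followed by a number, from the 54658 symbols of each count table, and 5 pseudogene names ending in -ps were left out. Of the 78, 49 carry large subunit symbols (Mrpl) and 29 carry small subunit symbols (Mrps). The rule used symbols only and no measured value.

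RNA was sequenced from 24 samples of male C57BL/6 mice aged 7 to 12 weeks, given either β-nicotinamide mononucleotide (β-NMN), a precursor of NAD+, or saline (0.9% NaCl; vehicle). β-NMN was injected intraperitoneally at 185 mg/kg per day. Heart and lung were taken the day after cecal ligation and puncture (CLP), a surgical model of polymicrobial sepsis, from 3 vehicle-treated and 3 β-NMN-treated mice, both organs from the same animals. Peritoneal cells were collected after thioglycollate, a sterile irritant that draws leukocytes into the peritoneum, then plated and stimulated with E. coli for 6 h (6 vehicle-treated and 6 β-NMN-treated mice). All hearts and lungs therefore came from septic animals and all peritoneal cells had met bacteria, and no sham-operated or unstimulated sample was analysed here. Per the study, the organs followed a single injection of β-NMN or vehicle, and the peritoneal cells followed daily injections for 3 days. The source labels of the CLP organs name thioglycollate peritonitis, whereas their titles and tissues give CLP. The labels number 2 β-NMN hearts as replicate 3, and of these the heart sharing its animal with lung replicate 2 was called replicate 2.

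Mitochondria keep their own small genome and translate it on ribosomes that differ from those of the cytosol. The large subunit forms the peptide bonds, and the small subunit holds the messenger RNA and reads its codons. All proteins of these ribosomes are encoded in the nucleus, made in the cytosol and imported, whereas the ribosomal RNAs are made inside the organelle. Part of the proteins have counterparts in bacterial ribosomes and part are found only in mitochondria. The products of this translation are core subunits of the respiratory chain and of ATP synthase, which makes heart muscle, rich in mitochondria, a tissue of high demand.

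Total counts ranged from 31126823 to 112456050 in vehicle and from 36353254 to 90903671 in β-NMN peritoneal cells, from 27319513 to 68523239 in hearts and from 8915366 to 28356786 in lungs. The members held 0.0526 to 0.0743% of the counts in peritoneal cells, 0.265 to 0.349% in hearts and 0.192 to 0.253% in lungs. Cardiomyocyte markers summed to at least 37973 CPM (counts relative to the library's total after scaling by edgeR's TMM factors) in every heart, lung epithelial markers to at least 60703 in every lung and macrophage and monocyte markers to at least 5632 in every peritoneal library. The heart and lung of vehicle mouse 2 stood apart from the other libraries of their organ. The SD of its log2 CPM around the mean of the other 5 libraries was 0.990 in heart and 1.57 in lung, against 0.386 to 0.577 and 0.450 to 0.602 in the others. This lung also had the lowest total, 8915366 counts. In RNA from whole tissue, fewer cells of a type and less RNA per cell cannot be told apart.

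1 member, Mrpl53, a mitochondria-specific protein of the large subunit (chromosome 6, 83109040 to 83109939), had 0 counts in all 24 libraries. Its exons overlap Gm42688 on the same strand and Ccdc142os on the other, and the part of this overlap in the zero was not tested. The other 77 members passed the low-count filter in every tissue. All results below rest on 48 large and 29 small subunit genes.

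In peritoneal cells, most mitochondrial ribosomal protein genes were higher after β-NMN. Of the 48 large subunit genes, 23 rose and 1 fell at an adjusted p below 0.05 (edgeR quasi-likelihood test, adjusted over 14985 genes), and of the 29 small subunit genes 19 rose and 0 fell. Over all genes tested, 23.7% were called higher and 27.9% called lower. The median log2 fold change was 0.33 in the large and 0.47 in the small subunit, against -0.02 over all genes. Members called higher lay between 0.30 and 0.79 on the log2 scale in the large subunit and between 0.22 and 0.90 in the small one. Without regard to the test, 39 of 48 and 27 of 29 were above 0, against 48.5% of all genes. In 20 of 77 members every β-NMN library lay above every vehicle library (12.6% of all genes), and in 1 member the order was the opposite (14.0%).

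**Figure D1:**
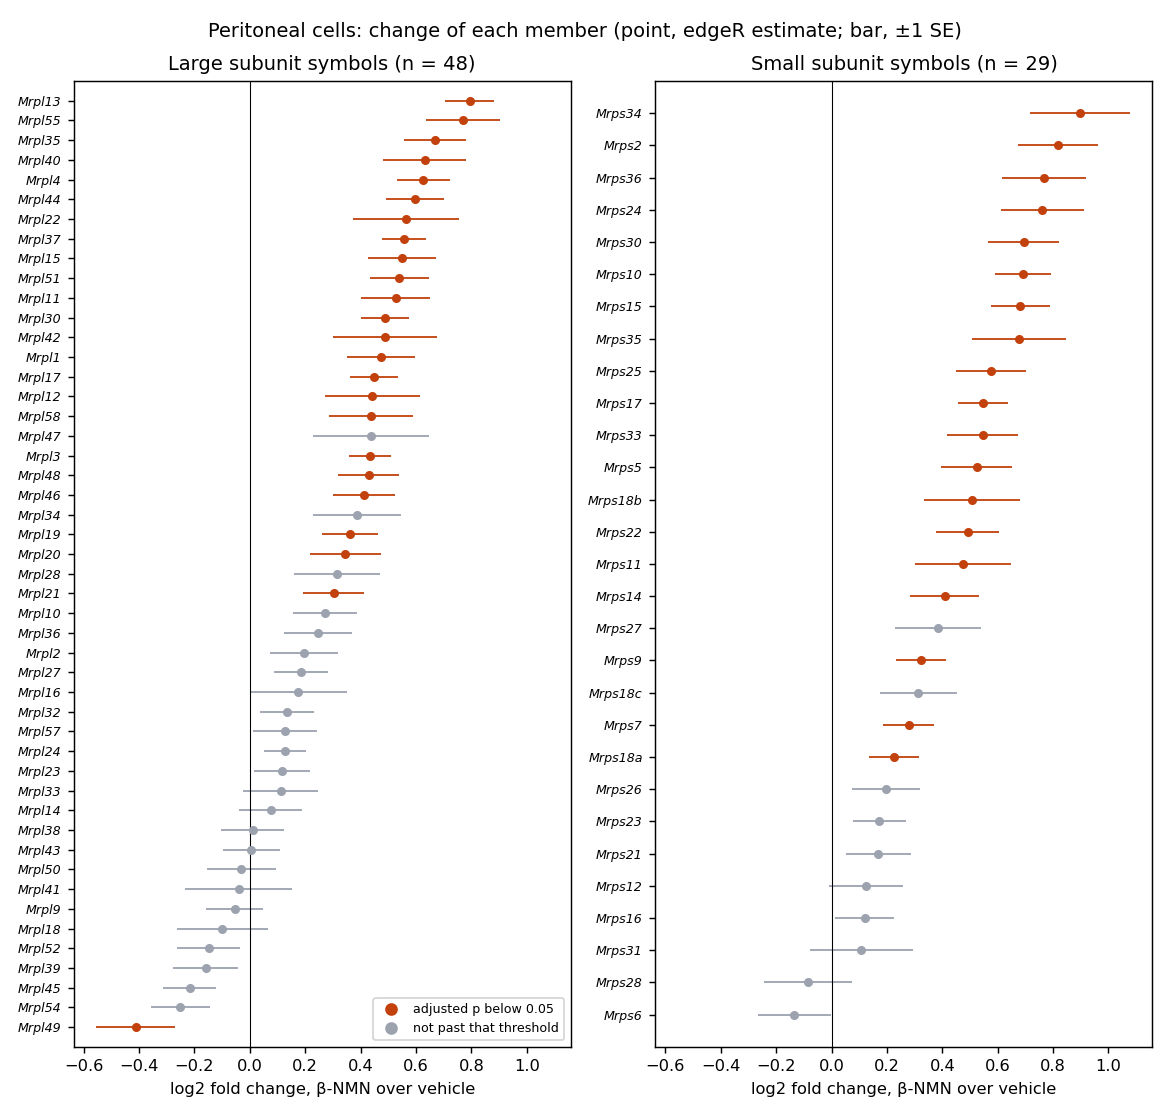
Log2 fold change of the 48 large subunit (left) and 29 small subunit genes (right) in peritoneal cells, β-NMN over vehicle, 6 mice per group. Points are edgeR estimates and bars ±1 SE. Orange marks an adjusted p below 0.05; the 42 members called higher sit to the right of 0 and Mrpl49 alone is called lower.

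Among the large subunit genes the smallest p belonged to Mrpl13, Mrpl37, Mrpl4 and Mrpl35. Mrpl13 (chromosome 15, 55534094 to 55557748) encodes a counterpart of bacterial L13. It read 13.6 to 17.2 CPM in vehicle libraries (median 15.7) and 25.4 to 31.4 in β-NMN libraries (median 26.3). The groups did not overlap, and the log2 fold change was 0.79 ± 0.09 (SE, adjusted p = 4.42e-06). Its exons overlap Mtbp on the other strand. Mrpl37 (chromosome 4, 107055874 to 107066868), a mitochondria-specific protein, ran from 10.7 to 13.1 CPM with vehicle (median 12.8) and from 17.4 to 19.1 with β-NMN (median 18.7), again without overlap (log2 fold change 0.56 ± 0.08, adjusted p = 4.22e-05). Mrpl4, a counterpart of L4 at the wall of the exit tunnel, ran from 11.9 to 13.2 CPM (median 12.7) and from 15.1 to 22.3 (median 20.4). Its lowest β-NMN value was replicate 6, still above every vehicle library (0.63 ± 0.10, adjusted p = 8.57e-05). Mrpl35, a counterpart of L35, ran from 4.97 to 7.10 CPM (median 5.54) and from 8.09 to 10.6 (median 8.68; 0.67 ± 0.11, adjusted p = 0.000198). For all 4 the exact two-sided permutation p was 0.00216, the smallest that 6 mice against 6 can give. Any groups without overlap give this value, as in 12.6% of all genes with β-NMN higher and 14.0% with it lower. Since these genes were picked by p in the same libraries, this test adds no support of its own.

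Among the small subunit genes the smallest p belonged to Mrps10, Mrps15, Mrps17 and Mrps2, all with counterparts in bacteria. Mrps10 (chromosome 17, 47368887 to 47381417) ran from 4.92 to 6.65 CPM in vehicle libraries (median 6.00) and from 8.75 to 10.8 in β-NMN libraries (median 9.46; log2 fold change 0.69 ± 0.10, adjusted p = 5.81e-05). Mrps15 ran from 7.44 to 9.91 CPM (median 9.16) and from 12.3 to 16.2 (median 14.2; 0.68 ± 0.11, adjusted p = 0.000102). Mrps17 ran from 6.22 to 7.96 CPM (median 6.93) and from 9.52 to 10.8 (median 10.1; 0.55 ± 0.09, adjusted p = 0.000143). In each of the 3 the lowest β-NMN library was above the highest vehicle library. Mrps2 ran from 1.98 to 3.35 CPM (median 2.42) and from 4.28 to 5.05 (median 4.499; 0.82 ± 0.14, adjusted p = 0.000292). The permutation p was 0.00216 for each of these 4 genes too, again fixed by groups without overlap.

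The direction was not shared by every member. Mrpl49 (chromosome 19, 6053622 to 6057785), a mitochondria-specific protein of the large subunit, was the only one to fall. It ran from 2.33 to 3.21 CPM in vehicle libraries (median 2.49) and from 1.58 to 2.20 in β-NMN libraries (median 1.97), without overlap (log2 fold change -0.41 ± 0.14, adjusted p = 0.0242; permutation p = 0.00216). The call was lost on leaving out vehicle replicate 1 or 4 or β-NMN replicate 4, 5 or 6, one at a time (log2 fold change -0.45 to -0.31 over all 12 such fits). Mrpl54, Mrpl45 and Mrpl39 had lower means that did not pass, with log2 fold changes of -0.25 ± 0.11 (adjusted p = 0.0619), -0.22 ± 0.10 (adjusted p = 0.0709) and -0.16 ± 0.12 (adjusted p = 0.272). Mrpl45 tethers the ribosome to the inner membrane, beside the site of insertion of its products. Its values overlapped, 12.3 to 16.4 CPM with vehicle (median 13.4) and 11.3 to 12.98 with β-NMN (median 11.9). In the small subunit only Mrps6 (-0.13 ± 0.13, adjusted p = 0.414) and Mrps28 (-0.09 ± 0.16, adjusted p = 0.677) were below 0, and the exons of Mrps6 overlap Slc5a3 and Gm49711 on the same strand.

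By origin, 15 of 30 large subunit proteins with a bacterial counterpart were called higher and 0 lower (23.7% and 27.9% of all genes; median log2 fold change 0.35), against 8 called higher and 1 lower of 18 mitochondria-specific ones (median 0.07). In the small subunit, 10 of 16 with a bacterial counterpart (median 0.37) and 6 of 10 mitochondria-specific ones (median 0.50) were called higher. These shares were not compared by a test.

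The functional sites of the ribosome held called and uncalled members side by side. Of the stalk, which recruits the translation factors, Mrpl11 ran from 3.91 to 6.63 CPM in vehicle libraries (median 4.49) and from 6.35 to 7.42 in β-NMN libraries (median 6.75), overlapping only through vehicle replicate 3 (log2 fold change 0.53 ± 0.12, adjusted p = 0.00251). Mrpl12, which also binds the mitochondrial RNA polymerase, ran from 2.32 to 3.82 CPM (median 3.37) and from 3.23 to 5.87 (median 4.38; 0.44 ± 0.17, adjusted p = 0.0404). Mrpl10, which carries the copies of Mrpl12, had a log2 fold change of 0.27 ± 0.11 that did not pass (adjusted p = 0.0598). Mrpl58, a peptidyl-tRNA hydrolase that frees stalled ribosomes, rose by 0.44 ± 0.15 (adjusted p = 0.0253), and Mrpl44, a protein with a ribonuclease III fold, by 0.60 ± 0.10 without overlap between groups (adjusted p = 0.000276). The calls of Mrpl12 and Mrpl58 did not hold in every fit that left out a single library. Mrps12, at the decoding centre, had a log2 fold change of 0.12 ± 0.13 (adjusted p = 0.462), and Mrpl41 one of -0.04 ± 0.19 (adjusted p = 0.879).

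Some symbols do not match the place of the protein. Mrps18a, Mrps18b and Mrps18c are paralogs of a single bacterial protein, and Mrps18a and Mrps30 sit in the large subunit in spite of their names. Mrps18a ran from 16.3 to 22.1 CPM in vehicle libraries (median 17.6) and from 19.3 to 23.3 in β-NMN libraries (median 21.4), which overlapped (log2 fold change 0.22 ± 0.09, adjusted p = 0.0492). Mrps18b ran from 1.32 to 2.00 CPM (median 1.62) and from 1.71 to 2.87 (median 2.37; 0.51 ± 0.17, adjusted p = 0.0236). Neither call held in every fit that left out a single library. Mrps18c had 0.31 ± 0.14 and did not pass (adjusted p = 0.0721). Differences among the 3 paralogs were not tested. Mrps30 ran from 2.42 to 3.48 CPM (median 3.04) and from 3.70 to 5.63 (median 5.01), without overlap (0.69 ± 0.13, adjusted p = 0.000398). Mrps36, now known as a component of the 2-oxoglutarate dehydrogenase complex of the citric acid cycle, ran from 2.15 to 3.26 CPM (median 2.42) and from 3.02 to 5.17 (median 4.33; 0.77 ± 0.15, adjusted p = 0.000660). Counting Mrps18a and Mrps30 with the large subunit and leaving Mrps36 out gave 25 of 50 large and 16 of 26 small subunit genes called higher. Over all genes 23.7% were called higher.

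**Figure D2:**
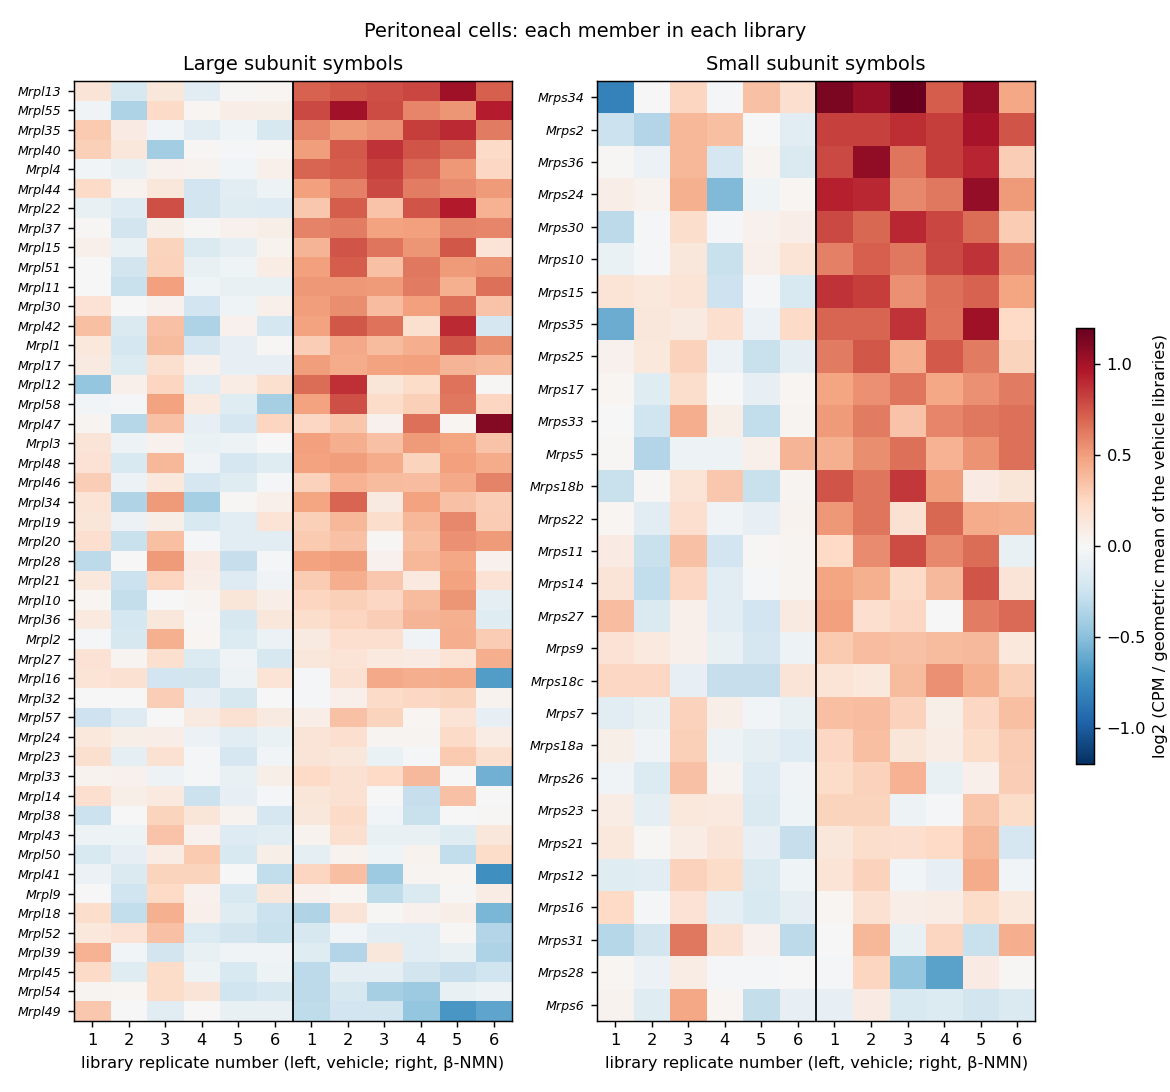
Each member (rows, sorted by fold change) in each of the 12 peritoneal libraries (columns; 6 vehicle left of the line, 6 β-NMN right of it), as the log2 ratio of its CPM to the geometric mean of the vehicle libraries. Red is higher and blue lower; the upper rows are red in nearly all β-NMN libraries, and vehicle replicate 3 is the reddest of the vehicle libraries.

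Summed over members, the large subunit gave 390 to 476 CPM in vehicle libraries (median 405) and 475 to 531 in β-NMN libraries (median 493). Here the groups overlapped by 1 library, since vehicle replicate 3 lay just above β-NMN replicate 6. The small subunit gave 142 to 178 CPM (median 148) and 189 to 212 (median 199), without overlap. Accordingly the ratio of large to small subunit sums was lower in every β-NMN library, 2.43 to 2.55 (2.50 ± 0.05, SD, n = 6) against 2.68 to 2.92 (2.76 ± 0.08, n = 6). The sums are weighted by abundant members, among them Mrpl52 and Mrpl9, whose log2 fold changes of -0.15 and -0.06 did not pass the test. The sum of the 89 cytosolic ribosomal protein genes overlapped, 18535 to 24086 CPM with vehicle and 21164 to 24574 with β-NMN.

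Per length of exon, the members spanned a wide range in these cells. Mrpl52, Mrpl27 and Mrpl54 were the highest, with 24.3 ± 4.29, 15.2 ± 1.72 and 16.4 ± 2.07 CPM per kb in vehicle libraries (SD, n = 6) and 21.9 ± 1.90, 17.3 ± 1.61 and 13.8 ± 1.52 in β-NMN libraries. Mrpl27 and Mrpl54 did not differ beyond their spread in vehicle libraries, whereas in β-NMN libraries Mrpl27 was above Mrpl54 by more than both SDs together. Mrps35, Mrpl47 and Mrps30 were the lowest, with 0.188 ± 0.0352, 0.305 ± 0.0569 and 0.453 ± 0.0525 CPM per kb with vehicle and 0.304 ± 0.0526, 0.413 ± 0.130 and 0.735 ± 0.0994 with β-NMN. The median member had 2.50 CPM per kb over all 12 libraries.

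The number of calls depended on the libraries used. Leaving out single libraries gave 17 to 30 large and 16 to 21 small subunit genes called higher, and 3252 to 3999 over all genes. Of the 42 members, 32 were called in every one of these 12 fits. Within the 7 libraries under 70000000 counts (3 vehicle and 4 β-NMN) 17 members were called higher (13.2% of all genes), and within the 5 libraries over 70000000 counts (3 and 2) 38 were (13.9% of all genes).

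Cell type markers moved in the same libraries. The 8 macrophage and monocyte markers summed to 5632 to 8553 CPM with vehicle and 10572 to 12142 with β-NMN, with 3 genes called higher and 1 lower. Of 7 resident peritoneal macrophage markers 4 were called higher and 2 lower, with sums of 40.3 to 57.9 and 44.9 to 95.4 CPM. Of the endothelial markers 2 were called lower and of the eosinophil and mast cell markers 1, with none called higher. Of 11 neutrophil markers 8 were tested, 1 was called higher and 6 lower, with sums of 481 to 998 and 327 to 457 CPM. All 7 T and NK cell markers were called lower (13.5 to 68.8 against 8.03 to 12.2 CPM), as were 3 of 5 B cell markers (37.1 to 189 against 25.9 to 92.3 CPM) and 5 of 6 fibroblast markers (111 to 1173 against 22.9 to 100.0 CPM). All 5 erythroid markers were called higher (2.91 to 38.8 against 52.5 to 133 CPM). The granule genes Mpo, Elane, Ngp and Camp were under 1 CPM in all 12 libraries. The part of these shifts in the members' rise was not tested.

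Genes around the ribosome were read in peritoneal cells against the same 23.7% of all genes called higher and 27.9% called lower. The 5 further ribosomal proteins with other symbols gave 1 call, Ptcd3 of the small subunit, at 4.10 ± 0.82 CPM with vehicle and 5.51 ± 0.78 with β-NMN (SD, n = 6; log2 fold change 0.43 ± 0.15, adjusted p = 0.0247), whereas Chchd1 had 0.23 ± 0.12 (adjusted p = 0.106). Of 16 translation factors tested, 7 were called higher and 0 lower. The elongation factor gene Gfm1 went from 11.8 ± 1.02 to 17.2 ± 1.61 CPM and Gfm2, which encodes a factor of ribosome recycling, from 11.8 ± 0.41 to 19.3 ± 1.29, neither with overlap between groups.

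Of 22 genes for charging mitochondrial tRNAs, 7 were called higher (31.8%) and 3 lower (13.6%). The arginine and threonine enzymes Rars2 and Tars2 had the smallest p, with log2 fold changes of 0.97 ± 0.13 and 0.82 ± 0.13. Of 27 genes of ribosome assembly and ribosomal RNA modification, 8 were called higher (29.6%) and 6 lower (22.2%), near the shares of all genes. The pair with the smallest p, both methyltransferases, went apart: Trmt61b rose from 4.30 ± 1.09 to 14.6 ± 1.22 CPM (log2 fold change 1.77 ± 0.16), and Mrm3, which modifies the large ribosomal RNA, fell from 1.03 ± 0.26 to 0.321 ± 0.05 (-1.66 ± 0.23).

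Of 20 genes of mitochondrial DNA transcription and its nuclear regulators, 4 were called higher and 10 lower. Esrra, a nuclear receptor that activates mitochondrial genes, fell from 77.2 ± 8.80 to 41.7 ± 6.31 CPM, and Myc fell from 205 ± 55.7 to 92.3 ± 20.9, in both cases without overlap. Of the 13 protein genes encoded in mitochondrial DNA, 11 were called higher, and their sum ran from 4031 to 5682 CPM with vehicle and from 5931 to 7934 with β-NMN. Of these, mt-Nd1 and mt-Nd4, subunits of complex I, rose by 0.69 ± 0.10 and 0.76 ± 0.11. Of 86 cytosolic ribosomal protein genes tested, 8 were called higher and 4 lower (median log2 fold change 0.11), with Rps10 at 1.12 ± 0.24 and Rps4l at -0.72 ± 0.16 having the smallest p.

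The members were read at their start sites, whether or not they were called in peritoneal cells. RefSeq windows on GRCm38.p6, from 250 bases before to 50 bases after the start, were found for 69 of the 78 members (75 windows). The median GC content was 58.0% for members and 52.8% over the 27025 genes with a window, and the median number of CpG pairs per window was 21 against 7.

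Motifs were searched as exact letters on both strands. AAGATGGC, letters bound by YY1, occurred in 12 of 69 members (17.4%) and in 3.19% of all genes. It also contains ATG, the start codon triplet, and binding by YY1 was not measured. CCGGAAGT, a core of ETS factors such as GABP, occurred in 12 members (17.4%) and in 4.31% of all genes. GCGCATGC, the core of NRF1, occurred in 8 members (11.6%) against 3.05%. The CCAAT box occurred in 27 members (39.1%) against 41.1%, and TGACGTCA in 2 (2.90%) against 2.03%. In 8 of the 12 members with AAGATGGC the letters stood on the gene's own strand, with their first base 12 to 37 bases after the start. They were present in 7 of 36 members called higher in peritoneal cells (19.4%), in 4 of 31 not called (12.9%) and in Mrpl49, which fell. CCGGAAGT was present in 4 of the 36 (11.1%) and 8 of the 31 (25.8%).

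The stretches from 110 bases before to 40 after the start are shown for members that carry these letters in that stretch: the 3 called higher with the smallest p among those with all of AAGATGGC inside it (in Mrps24 the letters run past its end), the member called lower with the same letters, and the member of smallest p for each of the other cores. Capitals mark the core letters. They stand after the start in the first 4, close before it in the last 2. The windows lie at chr4:107066827-107066976 on the minus strand (Mrpl37), chr6:71823745-71823894 on the minus strand (Mrpl35), chr11:115604030-115604179 on the plus strand (Mrps7), chr19:6057716-6057865 on the minus strand (Mrpl49), chr7:105811048-105811197 on the minus strand (Mrpl17) and chr9:105053158-105053307 on the plus strand (Mrpl3).
Mrpl37: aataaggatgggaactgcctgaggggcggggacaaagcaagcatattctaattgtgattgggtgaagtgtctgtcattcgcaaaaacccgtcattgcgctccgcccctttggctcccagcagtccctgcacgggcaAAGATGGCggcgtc
Mrpl35: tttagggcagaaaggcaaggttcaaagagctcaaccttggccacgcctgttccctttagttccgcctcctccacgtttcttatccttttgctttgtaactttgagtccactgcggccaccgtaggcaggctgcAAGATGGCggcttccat
Mrps7: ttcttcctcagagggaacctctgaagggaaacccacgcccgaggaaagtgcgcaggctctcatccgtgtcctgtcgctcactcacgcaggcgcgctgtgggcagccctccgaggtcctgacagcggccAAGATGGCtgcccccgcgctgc
Mrpl49: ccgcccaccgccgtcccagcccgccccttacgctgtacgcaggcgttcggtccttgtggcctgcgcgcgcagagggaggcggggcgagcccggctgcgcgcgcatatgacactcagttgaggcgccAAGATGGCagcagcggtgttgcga
Mrpl17: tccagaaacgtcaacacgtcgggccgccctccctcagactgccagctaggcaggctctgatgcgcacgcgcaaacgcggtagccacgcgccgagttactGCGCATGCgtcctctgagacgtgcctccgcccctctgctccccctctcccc
Mrpl3: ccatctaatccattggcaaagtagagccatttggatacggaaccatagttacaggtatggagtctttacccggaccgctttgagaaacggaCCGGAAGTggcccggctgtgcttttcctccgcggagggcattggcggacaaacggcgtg

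The genes behind these stretches differed in response although they share letters. Mrpl37 and Mrpl35 rose as given above, and Mrps7 rose by 0.28 on the log2 scale, whereas Mrpl49 fell by 0.41 with the same 8 letters at a like distance from its start. The calls of Mrps7 and Mrpl49 did not hold in every fit that left out a single library. Mrpl17, with the NRF1 core, and Mrpl3, with the ETS core, rose by 0.45 and 0.43.

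Many members share their start region with another gene. In 21 of 69 members (30.4%) a gene on the other strand started head to head within 300 bases, against 9.44% of all genes with a window. A single pair joined 2 members: Mrps11 and Mrpl46 start 42 bases apart on chromosome 7 (78783131 and 78783089) and run away from each other. In peritoneal cells both rose, Mrps11 by 0.47 ± 0.17 (adjusted p = 0.0328) and Mrpl46 by 0.41 ± 0.11 (adjusted p = 0.00642). The call of Mrpl46 held in every fit that left out a single library, that of Mrps11 did not. Their exons overlap on opposite strands, and since strand use in counting is not given, reads of the overlap cannot be assigned. Head-to-head neighbours of other members did not always follow: Twnk, the mitochondrial DNA helicase, fell by 0.95 ± 0.20 (adjusted p = 0.00129) beside Mrpl43 at 0.01 ± 0.10 (adjusted p = 0.968), and Fau, a cytosolic ribosomal protein gene, stood at -0.10 ± 0.10 (adjusted p = 0.407) beside Mrpl49. Ptcd2, Tcp1, Ighmbp2 and Sars2 were called higher, and Ska3, Tmem63b, Klc4 and Zfp189 lower. Among these only Ighmbp2 stood beside a called member, Mrpl21.

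In hearts, no member was called (edgeR, adjusted over 16245 genes), nor was any other gene by this test (0.0% called in either direction). Most members nevertheless lay above 0, 44 of 48 in the large subunit and 27 of 29 in the small one, against 49.3% of all genes, with medians of 0.24 and 0.16 on the log2 scale against -0.01. At an unadjusted p below 0.05, 1 member was higher and 0 lower (3.68% and 7.63% of all genes). DESeq2 called 0 members, while it called 38 genes higher (0.254%) and 224 lower (1.5%). Scaling by total counts put the medians at 0.13 and 0.06, with all genes at -0.14.

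The size of this shift rested largely on vehicle mouse 2. Its heart was the lowest of the 6 in 66 of 77 members and in 36.2% of all genes. The large subunit summed to 2168, 1458 and 2100 CPM in vehicle replicates 1, 2 and 3 and to 2437, 2347 and 2086 in β-NMN replicates 1, 2 and 3. The small subunit summed to 1016, 702 and 984 CPM in vehicle and to 1109, 1091 and 997 in β-NMN. Vehicle replicate 2 had the lowest sum in both subunits. β-NMN replicate 3 lay below both other vehicle hearts in the large subunit and between them in the small one. In the same heart cardiomyocyte markers summed to 37973 CPM (52102 and 53661 in the other vehicle hearts, 55880 to 60719 with β-NMN), fibroblast markers to 2181 (887 to 1316 in the other 5) and the mitochondrially encoded protein genes to 101301 (169819 to 227519 in the other 5). Without it, 38 of 48 and 19 of 29 members lay above 0 (49.7% of all genes), with medians of 0.07 and 0.04.

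**Figure D3:**
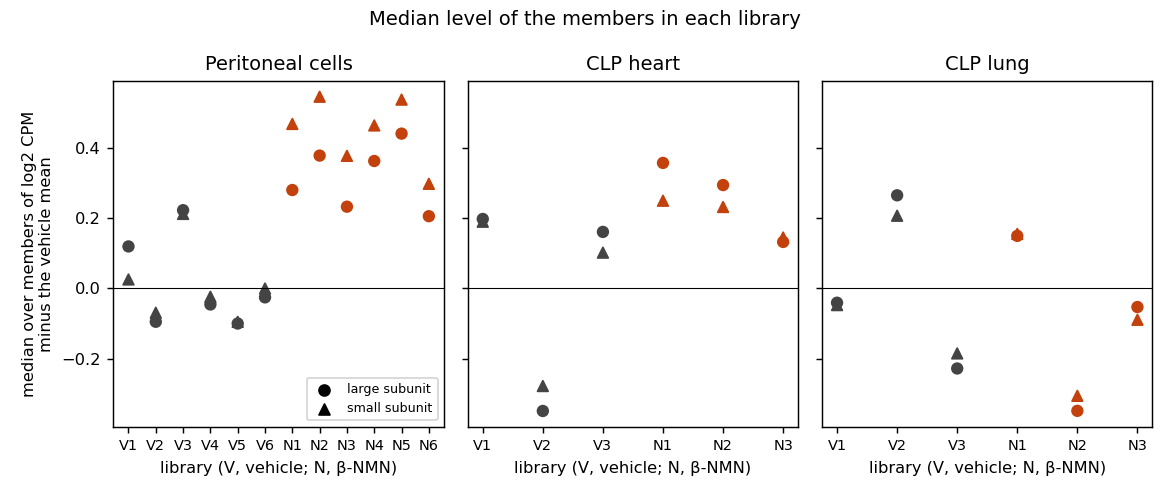
For each library, the median over members of log2 CPM minus the mean of the vehicle libraries of that tissue, for the large (circles) and small subunit (triangles), with vehicle in grey and β-NMN in orange. In peritoneal cells the β-NMN libraries lie at 0.21 or higher in the large subunit, where vehicle replicate 3 is at 0.22, and at 0.30 or higher in the small one, where it is at 0.21; in hearts vehicle replicate 2 lies at -0.35 and -0.28, and in lungs both groups straddle 0.

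Mrps18a, the paralog placed in the large subunit, was the member with the smallest p. It read 54.5, 33.5 and 47.5 CPM in vehicle hearts and 62.4, 67.1 and 61.7 in β-NMN hearts, without overlap (log2 fold change 0.50 ± 0.18, unadjusted p = 0.0311, adjusted p = 0.435). The exact permutation p was 0.1, the smallest possible with 3 mice against 3. Without vehicle replicate 2 its log2 fold change was 0.31 ± 0.10 (adjusted p = 0.372). Mrpl23 read 17.9, 11.9 and 16.6 CPM and then 29.3, 20.3 and 18.02 (0.54 ± 0.23, adjusted p = 0.435). Mrpl51, an abundant mitochondria-specific member, read 109, 65.5 and 105 CPM and then 139, 124 and 114 (0.43 ± 0.21, adjusted p = 0.447). For these genes, as for Mrpl21, Mrpl3, Mrps14, Mrps23 and Mrps5, vehicle replicate 2 was the lowest library and the 2 groups did not overlap. Groups without overlap occurred in 17 members with β-NMN above vehicle and in 2 with β-NMN below, against 11.6% and 11.5% of all genes.

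The 2 members without overlap in the other direction were Mrpl52 and Mrpl20. Mrpl52 read 27.5, 32.7 and 27.6 CPM in vehicle hearts and 24.5, 26.1 and 25.4 in β-NMN hearts (-0.21 ± 0.12, adjusted p = 0.463). Mrpl20 read 20.5, 21.1 and 20.7 and then 19.3, 18.3 and 17.8 (-0.17 ± 0.10, adjusted p = 0.492). In both, vehicle replicate 2 was the highest rather than the lowest heart. Mrpl33, Mrpl48, Mrps22 and Mrps6 lay below 0 too, at -0.11, -0.02, -0.07 and -0.03.

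In lungs, no member was called (edgeR, adjusted over 17008 genes; 0.0% of all genes in either direction), 0 members had an unadjusted p below 0.05 (0.494% of all genes were higher and 1.28% lower). DESeq2 called 0 members, and 1 gene higher (0.00596%) and 8 lower (0.0477%) over all genes. Of the large subunit 20 of 48 and of the small subunit 14 of 29 members lay above 0 (50.1% of all genes), with medians of -0.07 and -0.03 against 0.00. The sign of these medians depended on the setting: scaling by total counts gave 0.07 and 0.10 with all genes at 0.13, and leaving out vehicle replicate 2 gave 0.05 and 0.07, with 31 of 48 and 17 of 29 members above 0 (53.8% of all genes). No member had groups without overlap (4.47% of all genes higher and 3.75% lower).

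The lung of vehicle mouse 2 spread the members apart. It was the highest of the 6 lungs in 40 and the lowest in 21 of 77 members (36.4% and 43.8% of all genes). Mrps18c read 9.48, 37.7 and 5.09 CPM in vehicle lungs and 10.7, 4.95 and 8.03 in β-NMN lungs (log2 fold change -1.12 ± 0.74, adjusted p = 0.969). Mrpl18, which binds 5S ribosomal RNA in bacteria, read 21.05, 97.5 and 16.4 and then 30.9, 16.3 and 19.4 CPM (-1.01 ± 0.70, adjusted p = 0.969). Mrpl11, Mrps12 and Mrpl2 showed the same order, with 109, 85.8 and 122 CPM in this lung and at most 34.3, 46.5 and 54.1 in the other 5. Other members were low in it. Mrps18b read 4.52, 0.00 and 5.14 CPM in vehicle and 2.44, 4.95 and 4.25 in β-NMN lungs, and Mrps36 9.17, 2.89 and 8.62 and then 8.53, 7.00 and 8.07.

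Without vehicle replicate 2 the log2 fold changes of Mrps18c, Mrpl18, Mrpl11, Mrps12 and Mrpl2 were 0.10, 0.24, 0.06, 0.02 and 0.04. In this lung the cytosolic ribosomal protein genes summed to 90737 CPM (32018 to 49769 in the other 5), the erythroid markers to 11867 (1999 to 4088) and the macrophage and monocyte markers to 1359 (4002 to 5494). The part of these in the members' values was not tested.

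**Figure D4:**
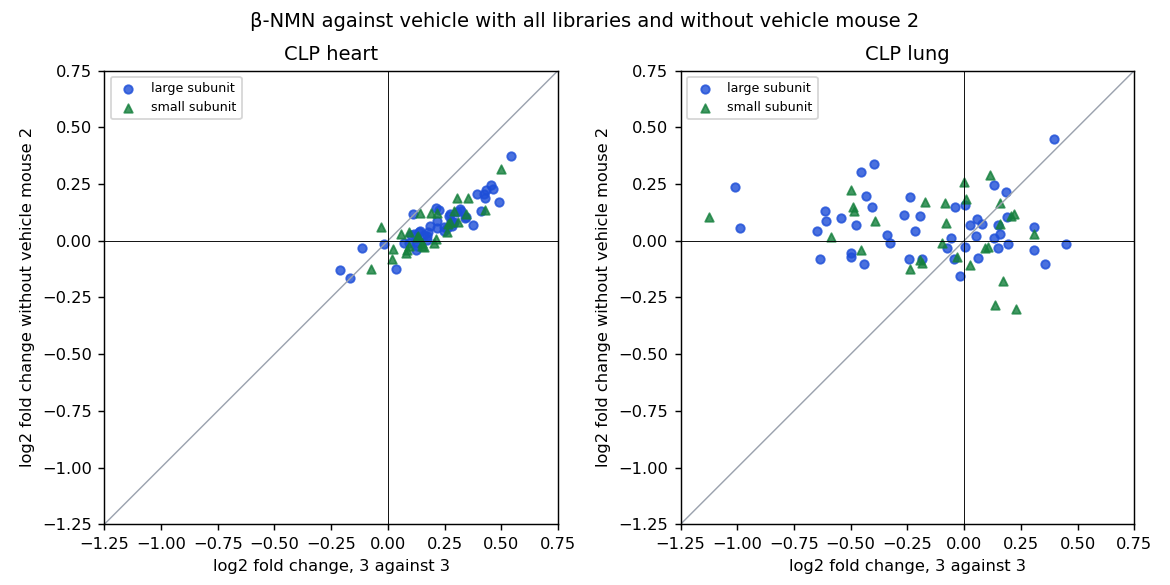
Log2 fold change of each member, β-NMN over vehicle, with all 6 libraries (horizontal axis) and without vehicle mouse 2 (vertical axis), in hearts (left) and lungs (right). In hearts most points lie below the line of equal values, Mrpl20, Mrpl27, Mrpl33, Mrpl48, Mrpl52 and Mrps6 excepted; in lungs the spread from -1.12 to 0.45 narrows to -0.30 to 0.45.

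Mrpl23 had the smallest p among higher large subunit genes in both organs. In lungs it read 14.8, 15.5 and 12.8 CPM with vehicle and 25.5, 13.6 and 17.6 with β-NMN, which overlapped (0.40 ± 0.29, adjusted p = 0.969). Mrps5, Mrps27, Mrps14 and Mrps15 had the smallest p among higher small subunit members, with log2 fold changes of 0.22, 0.31, 0.21 and 0.16. In the large subunit Mrpl40, Mrpl42 and Mrpl14 followed Mrpl23, at 0.31, 0.19 and 0.18, and Mrpl54 lay at -0.64. Mrps11 and Mrps17 lay at -0.46 and -0.49, and none of these passed (adjusted p = 0.969). Without vehicle replicate 2, Mrpl40, Mrpl42, Mrpl14 and Mrpl54 lay at 0.06, 0.11, 0.21 and -0.08. Mrps5, Mrps27, Mrps14 and Mrps15 then lay at 0.12, 0.03, 0.11 and 0.16, and Mrps11 and Mrps17 at -0.04 and 0.13.

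The effect of β-NMN in hearts minus that in lungs was tested as an interaction over the 12 CLP libraries. Mouse was not a block in this fit, although both organs came from the same mice. No member was called by edgeR, nor any of the 18318 genes (0.0%), and with mouse as a block 0 genes were called too. At an unadjusted p below 0.05, 1 member was counted (1.29% of all genes higher in heart, 3.06% lower). DESeq2 called 0 members, and 6 genes higher in heart (0.0333%) and 8 lower (0.0444%). The median difference was 0.32 on the log2 scale in the large and 0.18 in the small subunit, against -0.04 over all genes, and 42 of 48 and 26 of 29 members lay above 0 (47.2% of all genes). With total counts it was 0.08 and -0.02, with all genes at -0.29. Leaving out single libraries gave medians of 0.21 to 0.47 in the large and 0.10 to 0.33 in the small subunit. In the fits of each organ without vehicle mouse 2, the medians were 0.07 and 0.04 in hearts and 0.05 and 0.07 in lungs. Mrps18a had the smallest p (0.67 ± 0.28, unadjusted p = 0.0359, adjusted p = 0.960), followed by Mrpl2 (0.87 ± 0.48, adjusted p = 0.960).

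The level of the members differed between the organs more than with treatment. With mouse as a block, 35 of 48 large and 24 of 29 small subunit genes were higher in heart, and 1 and 0 were lower, whereas 29.2% of all genes were called higher and 34.6% lower. Medians were 1.07 and 1.17 on the log2 scale, against -0.10 over all genes, and 73 of 77 members lay above 0 (46.9% of all genes). By origin, 10 of 10 mitochondria-specific (median 1.69) and 11 of 16 bacterial-counterpart small subunit genes (median 0.88) were called higher in heart. In the large subunit 12 of 18 mitochondria-specific genes were called higher and 1 lower (median 0.86), and 23 of 30 with a bacterial counterpart were called higher (median 1.09). Without vehicle mouse 2, 45 and 28 members were called higher and 0 lower (37.2% of all genes higher). In the same fit 72 of 85 cytosolic ribosomal protein genes were called lower in heart and all 11 mitochondrially encoded protein genes tested were called higher.

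Levels per length were compared with both organs scaled together. Mrpl42, a mitochondria-specific large subunit gene, had 41.6 to 88.6 CPM per kb in hearts and 5.81 to 9.86 in lungs (73.5 ± 16.5 against 7.60 ± 1.39, SD, n = 6; log2 difference 3.25 ± 0.15). Mrps31 had 8.005 to 12.8 against 1.83 to 2.89 CPM per kb (2.18 ± 0.12) and Mrps2 8.63 to 11.8 against 2.58 to 3.23 (1.89 ± 0.13). In all 6 mice the heart was above the lung for these 3 genes. Mrps36, of the 2-oxoglutarate dehydrogenase complex, had 14.7 to 30.7 against 1.66 to 5.85 CPM per kb (2.47 ± 0.17).

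**Figure D5:**
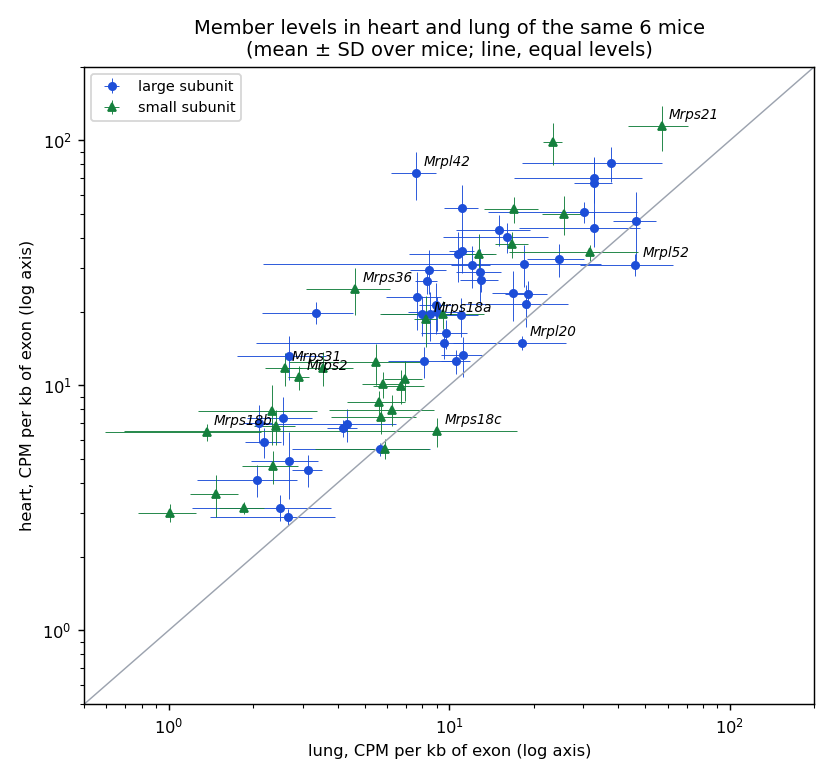
Level of each member in heart (vertical) and lung (horizontal) of the same 6 mice, in CPM per kb of exon on log axes, as mean ± SD. Most points lie above the line of equal levels; Mrpl42 lies farthest above it, and Mrpl52, Mrpl20, Mrpl48, Mrps17 and Mrps18c lie below it.

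Mrpl52 was the only member called lower in heart, with 27.9 to 36.7 CPM per kb against 25.3 to 76.5 in lung (-0.50 ± 0.17, adjusted p = 0.0338). Without vehicle mouse 2, whose lung held the highest value, its difference was -0.27 (adjusted p = 0.107). Mrpl20 and Mrps18c were next, at -0.19 ± 0.20 (adjusted p = 0.449) and -0.09 ± 0.37 (adjusted p = 0.846), and both were above 0 without that mouse (0.095 and 0.39). Of the 3 Mrps18 paralogs, Mrps18a was the highest in hearts. There it stood at 18.7 ± 4.36 CPM per kb, above Mrps18b (6.46 ± 0.511) and Mrps18c (6.49 ± 0.877). By merged exon length Mrps18b and Mrps18c did not differ beyond their spread. With the longest transcript as length and hearts scaled alone, Mrps18a had 24.5, Mrps18b 9.89 and Mrps18c 6.74 CPM per kb. Exons of Mrps18c overlap Gm43511 on the same strand. In lungs Mrps18b was the lowest at 1.37 ± 0.772, and Mrps18a (8.27 ± 0.772) and Mrps18c (9.03 ± 8.34) overlapped. Without vehicle mouse 2 the lung levels were 8.08 ± 0.701 for Mrps18a, 5.70 ± 1.88 for Mrps18c and 1.64 ± 0.429 for Mrps18b (n = 5).

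Scaled within each organ, Mrps21, Mrps23 and Mrpl2 had the highest levels per length in hearts (90.2, 78.0 and 63.9 CPM per kb over 6 libraries) and Mrpl33, Mrps22 and Mrpl19 the lowest (2.30, 2.39 and 2.51). In lungs Mrps21, Mrpl52 and Mrpl14 were highest (72.6, 58.8 and 58.6) and Mrps22, Mrps18b and Mrps30 lowest (1.28, 1.70 and 1.88). By merged exon length Mrpl52 was thus among the 3 highest members in lungs and in peritoneal cells, and Mrps30 among the 3 lowest in both. The lowest ranks depended on the length used. With the longest transcript as length, Mrps30 had 3.30 CPM per kb in lungs, above Mrpl35 at 3.11. In hearts Mrpl33 then had 6.14, above Mrpl19 at 2.73.

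The peritoneal cells came from other mice than the organs and followed repeated rather than single doses. Of the 42 members called higher in peritoneal cells, 39 had a log2 fold change above 0 in hearts and 18 in lungs. Over all 77 members 71 and 34 did, and over all genes 49.3% and 50.1%. Without vehicle mouse 2, 31 of the 42 lay above 0 in hearts and 27 in lungs. Over all members, 38 of 48 large and 19 of 29 small subunit genes then did in hearts (49.7% of all genes). In lungs 31 of 48 and 17 of 29 did (53.8% of all genes).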

How the data were processed

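The authors deposited raw read counts per gene from poly(A) libraries, aligned with STAR (2.7.3a) to mm10 and counted with featureCounts (2.0.0), per the labels (the methods give another version of STAR); annotation, strand setting and any count filter are not given in the sources used here, and read layout is given both as single-end and as paired-end. Members and gene lists were chosen with earlier results of these data known. Counts were fitted with edgeR (4.0.16, R 4.3.3): filterByExpr, TMM factors, quasi-likelihood F-test and Benjamini-Hochberg adjustment over all genes tested (threshold 0.05). Alternatives used limma (3.58.1) and DESeq2 (1.42.0). Exact permutation tests were two-sided. CPM are TMM-scaled; log2 CPM used a prior count of 2. Levels were divided by merged exon length (GENCODE, GRCm38). The fit was tested on simulated counts. Named genes were, per tissue and subunit, the 4 with the smallest p in each direction, the 3 highest and 3 lowest by level, the 3 and 2 of smallest p for heart against lung level and interaction, the 2 of smallest p per pathway list, and a fixed set (Mrps18 paralogs, stalk, Mrpl41, Mrpl44, Mrpl45, Mrpl58, Mrps12, Mrps30, Mrps36); genes named for promoters or neighbours, and Mrps24, Mrps27 and Mrpl9, were named after their values were seen. Each library was 1 mouse. Mice with the same number in vehicle and β-NMN groups are different animals; deviations of same-numbered samples correlated at -0.17 to 0.13 in peritoneal cells, so the numbers were not used for pairing.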

Additional observations from a re-analysis of the deposited data

Results flagged for a closer look

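In peritoneal cells, single libraries lay far from the other 5 of their group (gap to the next library over the group's range above Dixon's 95% critical value). With 28 series looked at per group, chance alone flags about 1 in 20. In vehicle replicate 3, Mrpl11 read 6.63 CPM (next 4.71), Mrps36 3.26 (next 2.52), Mrps6 6.88 (next 5.12) and the small subunit sum 178 (next 154), all highest of the group. In vehicle replicate 2, Mrpl37 read 10.7 CPM (next 12.6) and Mrpl10 5.46 (next 6.67), both lowest. In vehicle replicate 1, Mrpl39 read 23.8 CPM (next 17.5) and Mrpl49 3.21 (next 2.57), both highest. Among β-NMN libraries, Mrpl13 was highest in replicate 5 at 31.4 CPM (next 27.1), Mrpl44 in replicate 3 at 8.47 (next 7.46) and Mrps6 in replicate 2 at 5.31 (next 4.65).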

How the results depend on the processing

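In peritoneal cells, the 7 libraries under 70000000 counts gave 10 large and 7 small subunit genes called higher, and the 5 libraries over 70000000 counts gave a large subunit median of 0.47 (a split chosen after seeing the data). The large subunit count called lower was 0 within either side of that split and without the low-count filter. Leaving out single libraries gave 17 to 30 large subunit genes called higher, 0 to 3 called lower and 16 to 21 small subunit genes called higher. Over all genes these fits called 3252 to 3999 higher and 3652 to 4183 lower. In lungs, leaving out single libraries gave 13 to 31 large and 8 to 17 small subunit genes above 0. For the heart minus lung difference, 17 to 27 small subunit genes lay above 0, and 13 with total counts. For heart against lung level, the large subunit count called lower was 0 to 1, and 0 with DESeq2 size factors or without the filter. With the longest transcript as length, median levels were 3.16 (peritoneal), 19.0 (heart) and 13.8 CPM per kb (lung). The cause of these shifts was not tested.

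Directions turned for genes near 0 or resting on 1 library. With limma-voom and sample quality weights together, log2 fold changes were 0.0196 for Mrps6 in peritoneal cells, 0.0013 for Mrpl48 and 0.15 for Mrps6 in hearts, and -0.0145 for Mrpl42, 0.0011 for Mrpl18, -0.0414 for Mrps27 and 0.0627 for Mrps17 in lungs. Over 70000000 counts, peritoneal Mrps6 and Mrps28 had 0.19 and 0.21. Leaving out single libraries gave -0.19 to 0.0157 for Mrps6 and -0.17 to 0.0425 for Mrps28 in peritoneal cells, and -0.0798 to 0.0538 for Mrpl48, -0.13 to 0.0067 for Mrps22 and -0.16 to 0.11 for Mrps6 in hearts. In lungs it gave -0.0213 to 0.34 for Mrpl14, -1.32 to 0.0576 for Mrpl11, -1.38 to 0.24 for Mrpl18, -0.88 to 0.0411 for Mrpl2, -0.0127 to 0.29 for Mrps15, -1.54 to 0.10 for Mrps18c, -0.89 to 0.0165 for Mrps12 and -0.72 to 0.13 for Mrps17.

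With the replicate number as a block, 20 large and 16 small subunit genes were called higher in peritoneal cells (3188 of all 14985 genes). In hearts and lungs 0 members were called higher, and 0 over all genes. In hearts all 3 pairs correlated best with their own number, in lungs 1 of 3 and in peritoneal cells 0 of 6. Without the mouse block, 34 large and 24 small subunit genes were called higher in heart than lung (5330 of all 18318 genes).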
